A study of Rattus norvegicus with 16 samples.

Results

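The question addressed here was whether liver transcripts of rat pups followed a straight line over 3 doses of a contaminant mixture, and which of them left that line at the lower dose. Of the 16 arrays of the study, the 12 arrays of the control group and of both mixture doses carry this comparison, with 4 arrays in each group. For every transcript the departure was taken as the mean of the 4 arrays of the lower dose minus the mean of the control and the higher dose. It is given on the log2 scale, where 0 is the straight line and 1 is a doubling of the level over that line.

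All pups were male Sprague-Dawley rats, killed at postnatal day 21, and their dams were dosed during gestation and lactation. Dams of the C group received corn oil alone. Dams of the 0.5M and M groups received organochlorine pesticides, polychlorinated biphenyls and methylmercury in corn oil, at 0.5 mg/kg/day and 1.0 mg/kg/day in turn. These pups stayed with their own mothers. Dams of the AhR group received dioxin-like agonists of the aryl hydrocarbon receptor at 1.8 ng/kg/day in dioxin equivalents. The 4 arrays of that group were not compared here. They entered the estimates of the spread and of the difference between slides, and the choice of probes. Each array held liver RNA pooled at random from 2 pups, so a group stands for 8 pups. The labels used here do not tie pups to litters, and p-values are too small if arrays of a group shared a dam. Sample RNA was labelled with Cy5 and hybridised against a universal reference RNA from 14 rat cell lines in Cy3, without a dye swap.

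Chemicals of such mixtures are known to reach the liver genome through nuclear and cytosolic receptors. The aryl hydrocarbon receptor binds planar ligands and switches on the Cyp1 genes, whereas the receptors CAR and PXR respond to bulkier, phenobarbital-like compounds and switch on Cyp2b, Cyp2c and Cyp3a genes. Cholesterol and fatty acid synthesis are driven by the SREBP transcription factors, which are held back when membrane sterols are plentiful. All are well studied in liver, the organ that carries out most drug oxidation and much of lipid synthesis.

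All 12 hepatocyte markers looked for were measured, and 11 of them stood well above background on all 16 arrays. Of 30367 probes, the Cy5 signal was well above background for 7082 on the dimmest array and 15686 on the brightest. Precision is limited by having 4 arrays a group, and the median standard error of a departure was 0.0905 over the 13146 transcripts tested. On 2 arrays, 0.5M replicate 4 and M replicate 2, all 13 measured skeletal muscle markers lay above each of the other 14 arrays. The median of this list relative to C was 5.08 and 4.17 (log2) on them, and none of its members was well above background on all 16 arrays. Results that change without these arrays are given both ways, and beyond those values their part was not tested. In whole tissue, fewer cells of a type and less RNA per cell cannot be told apart.

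Promoters of 6 genes named in this report are shown first. They are the 250 bases before the start site, 5′ to 3′, from the RefSeq table of build GRCr8, which held 83 of the 110 genes named by the rule of this report. It held none for Cyp1a1, the only transcript that passed the test below, nor for Fasn, Usp42 or Pdia6. The promoters of those genes were therefore not searched. Cyp2b2 is a P450 gene of the phenobarbital class, and Ceacam4 encodes a cell adhesion molecule. Cyp2c7, also a P450 gene, stands both on the list of CAR and PXR targets and on that of female-biased liver genes. These 3 genes are shown because Cyp2b2 rose at both doses, whereas Cyp2c7 and Ceacam4 lay far below the line at the lower dose. Capitals mark GCGTG, the core of the aryl hydrocarbon receptor element, and AGGTCA, the core recognised by nuclear receptors, each read on both strands.
Cyp2b2, chr1:90722031-90722280, plus strand: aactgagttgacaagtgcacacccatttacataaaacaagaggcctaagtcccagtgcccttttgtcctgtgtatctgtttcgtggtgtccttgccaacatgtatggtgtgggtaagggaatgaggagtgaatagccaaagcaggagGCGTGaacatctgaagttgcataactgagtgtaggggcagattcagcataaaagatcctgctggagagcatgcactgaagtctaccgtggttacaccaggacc
Cyp2c7, chr1:247966144-247966393, plus strand: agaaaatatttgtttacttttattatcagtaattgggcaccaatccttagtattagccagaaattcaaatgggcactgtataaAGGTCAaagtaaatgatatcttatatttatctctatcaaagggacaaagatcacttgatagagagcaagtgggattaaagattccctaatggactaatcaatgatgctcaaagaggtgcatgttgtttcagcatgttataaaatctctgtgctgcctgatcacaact
Ceacam4, chr1:89504305-89504554, plus strand: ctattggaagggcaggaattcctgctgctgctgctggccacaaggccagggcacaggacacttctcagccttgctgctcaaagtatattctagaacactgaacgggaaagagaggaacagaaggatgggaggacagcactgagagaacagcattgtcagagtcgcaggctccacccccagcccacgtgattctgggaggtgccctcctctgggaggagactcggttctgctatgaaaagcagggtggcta
Neither string was found in the Ceacam4 window. GCGTG was found in 25.9% of all 33469 promoter windows of the table and in 44.7% of those of the 7078 measured genes that have one, and AGGTCA in 14.1% and 12%. Of the 18 measured CAR and PXR target genes with a promoter in the table, 8 held AGGTCA (44.4%) and 5 held GCGTG (27.8%). A match of letters is a description of these windows and not a binding site.

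The next 3 genes belong to cholesterol synthesis and its control, the list with the largest median departure of the 29 pathway lists examined. Insig1 retains the SREBP complex in the endoplasmic reticulum, Hmgcs1 makes HMG-CoA, and Msmo1 removes methyl groups from sterols. Capitals mark CCAAT, the box bound by NF-Y, which acts beside SREBP on sterol genes, or ATTGG, its reverse complement. TCACNCCAC, one spelling of the SREBP element, was also searched on both strands.
Insig1, chr4:8057770-8058019, minus strand: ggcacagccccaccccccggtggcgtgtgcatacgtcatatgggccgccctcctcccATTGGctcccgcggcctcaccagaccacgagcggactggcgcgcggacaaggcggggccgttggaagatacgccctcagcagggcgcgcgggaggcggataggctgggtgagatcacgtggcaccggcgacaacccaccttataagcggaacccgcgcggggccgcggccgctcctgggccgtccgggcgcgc
Hmgcs1, chr2:53382054-53382303, plus strand: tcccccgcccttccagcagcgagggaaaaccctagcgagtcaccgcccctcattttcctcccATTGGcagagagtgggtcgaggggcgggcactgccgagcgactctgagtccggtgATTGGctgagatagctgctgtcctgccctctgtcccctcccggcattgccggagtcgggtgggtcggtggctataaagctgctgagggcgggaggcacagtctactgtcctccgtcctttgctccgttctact
Msmo1, chr16:29746863-29747112, plus strand: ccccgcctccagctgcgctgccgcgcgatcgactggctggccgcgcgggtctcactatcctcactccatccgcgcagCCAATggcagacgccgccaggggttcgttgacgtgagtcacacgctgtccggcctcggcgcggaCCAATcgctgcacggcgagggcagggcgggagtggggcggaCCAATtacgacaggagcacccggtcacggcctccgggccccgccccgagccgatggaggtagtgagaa
CCAAT was found in 34% of all promoter windows and in 37.4% of the 7078 measured genes that have one. It was found in 14 of the 17 cholesterol synthesis genes with a promoter (82.4%). TCACNCCAC was found in 0.974% of all windows and in 0 of these 17 windows, which says only that these letters are not there.

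Across the transcriptome, departures were small and 1 transcript passed the test. With limma and Benjamini-Hochberg adjustment over 13146 transcripts, 1 lay above the line (0.00761% of those tested) and 0 lay below it. At an unadjusted p under 0.05, 269 lay above (2.05%) and 448 below (3.41%), in all 717 or 5.45%, where chance alone would give 657.3. On a linear scale, where the lower dose is set against the arithmetic mean of the C and M levels, 0 passed in either direction, with 255 above (1.94%) and 469 below (3.57%) at an unadjusted p under 0.05. The median departure was -0.0035 and departures ran from -0.20 at the 5th percentile to 0.17 at the 95th. Of the 717, 707 had a mean at the lower dose outside both other means: 265 above both and 442 below both. Over all 13146 transcripts 3987 lay above both and 4241 below both, and choosing large departures favours such shapes. Of the 717, 4 lay between C and M and above the line, and 6 lay between them and below it.

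The transcript that passed was Cyp1a1, the best known target of the aryl hydrocarbon receptor, which oxidises planar aromatic compounds. Relative to the C mean, its log2 levels in the C arrays were 0.45, -0.22, 0.02 and -0.25. They were 4.23, 3.50, 3.64 and 3.61 in the 0.5M arrays. In the M arrays they were 4.39, 4.43, 4.70 and 4.81. The 3 groups did not overlap, and the lower dose lay much nearer to the higher dose than to C. Cyp1a1 was 1 of the 2 transcripts called at the lower dose (0.0152% of those tested), with Cyp2b2. The differences from C were 3.74 ± 0.18 at the lower dose (SE, n = 4, 13.4-fold) and 4.58 ± 0.18 at the higher dose (23.9-fold). They share the C arrays. Cyp1a1 departed by 1.45 ± 0.16 on the log2 scale (limma, adjusted p = 0.00151, 95% confidence interval 1.12 to 1.79).

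What straight line is drawn decides how Cyp1a1 is described. On the log2 scale the lower dose reached 81.7% of the difference at the higher dose, where a straight line gives 50%. On the linear scale, in units of the ratio itself, it reached 54.1%. The linear departure was 0.10 ± 0.18 (limma, adjusted p = 0.970, 95% confidence interval -0.28 to 0.49). The log2 departure of Cyp1a1 was 1.60 within slide 1 (adjusted p = 0.999) and 1.31 within slide 2 (adjusted p = 0.0451), each from 2 arrays a group. It was 1.78 with quantile normalization (adjusted p = 0.136) and 1.44 with median centring (adjusted p = 1.000). Without the 5 arrays set aside for transcripts of other tissues (C replicate 2, 0.5M replicate 4, M replicates 1 and 2, and AhR replicate 2) it was 1.31 (adjusted p = 0.179). Leaving out any 1 of the 12 arrays gave 1.28 to 1.54, with all adjusted p-values at or below 0.0103. M replicate 1 and AhR replicate 2 had the highest medians of the pancreas markers (0.97 and 0.67 relative to C). AhR replicate 3 (0.43) and M replicate 4 (0.41) were kept. C replicate 2 had the highest median of the fat markers (0.27), and M replicate 3 (0.22) was kept.

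**Figure D1:**
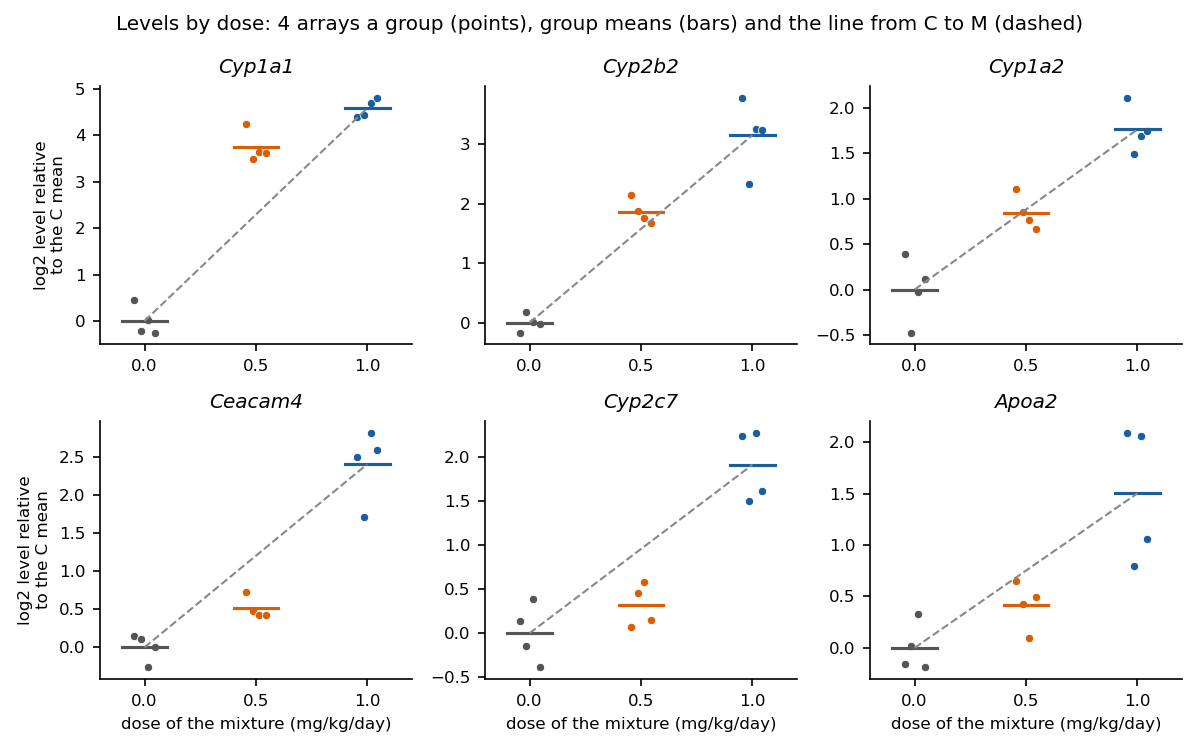
Log2 levels relative to the C mean (vertical axes, after the slide term was taken out) against dose in mg/kg/day for 6 genes. Points are the 4 arrays of a group, bars are group means and the dashed line joins the C and M means. Cyp1a1 lies above the line at the lower dose (departure 1.45), Ceacam4 (-0.69) and Cyp2c7 (-0.64) lie below it, and Cyp1a2 lies near it (-0.03).

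No other target of the aryl hydrocarbon receptor passed. Of 11 measured members of this list, Cyp1a1 alone passed, 6 lay above the line and 5 below, and the median departure was 0.03 against -0.0035 over all transcripts, turning to -0.01 without C replicate 2. After Cyp1a1, Gsta2, a glutathione transferase, had the largest departure of the list at -0.47 ± 0.31, named after its value was seen. Cyp1a2, the second Cyp1 enzyme of liver, had 0.5M arrays at 1.10, 0.85, 0.77 and 0.66 and M arrays at 2.11, 1.49, 1.69 and 1.75, without overlap. Its departure was -0.03 ± 0.14 (95% confidence interval -0.34 to 0.27), and 0.10 within slide 1 and -0.17 within slide 2. On the log2 scale the interval does not reach the departure of Cyp1a1, and the sign turned under several alternatives, quantile normalization (0.20) among them. On the linear scale the departure of Cyp1a2 was -0.29 ± 0.15 (95% confidence interval -0.61 to 0.03). That interval overlaps the linear one of Cyp1a1 (-0.28 to 0.49). For Ugt1a6, a glucuronosyltransferase, and Nqo1, a quinone reductase, the departures were 0.09 ± 0.12 and 0.03 ± 0.17, and both were below 0 within slide 2 (-0.10 and -0.13). Cyp1b1 was well above background on 0 of 4 C arrays, on 1 of 4 at the lower dose and on 3 of 4 at the higher dose, and its departure of -0.21 ± 0.14 rests on dim signals.

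Among CAR and PXR targets the largest rise, that of Cyp2b2, stood close to the log2 line. Its levels were 2.15, 1.87, 1.76 and 1.68 in the 0.5M arrays and 3.79, 2.34, 3.26 and 3.24 in the M arrays. Each 0.5M array lay below each M array and above each C array (-0.17 to 0.18). Cyp2b2 rose at both doses (1.87 and 3.16, limma adjusted p = 0.00181 and 1.18e-06), by 3.65-fold and 8.91-fold. The departure was 0.29 ± 0.19 on the log2 scale and -0.44 ± 0.21 on the linear scale, with adjusted p-values of 0.908 and 0.892. The sign turned with the scale, and the linear 95% confidence interval ran from -0.89 to -0.00. A second probe to the same Cyp2b2 transcript gave smaller rises, of 1.21 at the lower and 2.02 at the higher dose, and a log2 departure of 0.20.

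The rest of that list did not pass either. Of 20 measured members 12 lay above and 8 below the line, with a median of 0.09, and this median was 0.20 within slide 1 and -0.04 within slide 2. Cyp2c6v1, Cyp3a23-3a1 and Aldh1a1, a retinaldehyde dehydrogenase, had departures of 0.07 ± 0.15, -0.09 ± 0.15 and -0.05 ± 0.24, whose signs changed under some of the alternatives. Abcc2, an export pump for conjugates, reached 0.49 at the lower and 0.53 at the higher dose, and its departure was 0.23 ± 0.10 (adjusted p = 0.900). Of 21 NRF2 target genes 12 lay above the line and 0 passed. Their 2 smallest unadjusted p-values were those of Me1, malic enzyme, with a departure of 0.48 ± 0.19, and Gclc, of glutathione synthesis, with 0.30 ± 0.13. A second probe of Me1 gave 0.29, and without 0.5M replicate 2 the departure of Me1 was 0.32.

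A pair of transcripts with a symbol rose at the higher dose and stood well below the line at the lower one. Ceacam4, well above background on 3 of 4 C arrays and on all 8 others, had log2 levels of 0.15, 0.11, -0.26 and 0.00 in the C arrays. It had 0.72, 0.48, 0.42 and 0.42 in the 0.5M arrays and 2.49, 1.71, 2.81 and 2.59 in the M arrays. The groups did not overlap, and the lower dose lay much nearer to C. The difference from C was 0.51 ± 0.18 at the lower dose (adjusted p = 0.657) and 2.40 ± 0.18 at the higher dose (adjusted p = 2.13e-06), so that the lower dose reached 21.3% of the rise on the log2 scale and 9.93% on the linear scale. Ceacam4 was lower at 0.5M than at M by the same model (-1.89, adjusted p = 0.000192).

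The departure of Ceacam4 was -0.69 ± 0.15 (limma, adjusted p = 0.541) and did not pass on the log2 scale. On the linear scale it was -1.14 ± 0.17 with an adjusted p of 0.0542, close to the threshold. That linear departure of Ceacam4 passed with no slide term (adjusted p = 0.0430), with slide as a random block (0.0325), with array weights (0.0108) and within slide 2 (0.0164). It did not pass with replicate number as a block (limma adjusted p = 0.0816), from the 12 arrays alone (0.212) or within slide 1 (0.999). Nor did it pass with quantile normalization (0.552), median centring, the scanner's log ratio (0.200), the authors' values (0.0858) or no background subtraction (0.0683). Leaving out any 1 array other than M replicate 2 gave 0.0539 to 0.360. Without M replicate 2, the lowest M array and one of the 2 with muscle transcripts, the log2 departure was -0.82 (adjusted p = 0.00203) and the linear departure -1.36 (adjusted p = 1.17e-05). Without both arrays with muscle transcripts the log2 value for Ceacam4 was -0.81 (adjusted p = 0.00931), and without the 5 arrays with transcripts of other tissues it was -0.91 (adjusted p = 0.0322). Within slide 1 it was -0.51 and within slide 2 -0.87, with adjusted p-values of 0.999 and 0.256.

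Cyp2c7, a P450 whose level in rat liver depends on sex and hormones, had the same shape. Its levels were 0.07, 0.46, 0.59 and 0.15 in the 0.5M arrays, within the C range of -0.39 to 0.39 for 2 of the 4. In the M arrays they were 2.25, 1.51, 2.28 and 1.62, above each array of both other groups. Cyp2c7 was lower at 0.5M than at M (-1.60, limma adjusted p = 0.00467), and with Ceacam4 it made up the 2 transcripts called between the doses (0.0152% of those tested). Its departure of -0.64 ± 0.17 did not pass (adjusted p = 0.900), nor did the linear value of -0.94 ± 0.18 (adjusted p = 0.390). The other 2 probes of Cyp2c7 gave log2 departures of -0.61 and -0.68, and the slides gave -0.67 and -0.61. Apoa2, an apolipoprotein of high-density particles, had a departure of -0.34 ± 0.22 with M arrays between 0.80 and 2.10.

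The transcripts called at the higher dose were then placed along the line as a whole. They were chosen on the M and C arrays, which also enter the departure, so that their positions are a description. Of 42 such transcripts, 34 higher and 8 lower at M (0.259% and 0.0609% of those tested), all 42 had a mean at the lower dose between those of C and M. On the log2 scale 20 departures were above 0 and 22 below. The median share of the M difference reached at the lower dose was 50.8% for the 34 that rose and 58.0% for the 8 that fell. In linear terms these shares were 36.7% and 63.5%, and 9 of the 34 lay above the linear line against 17 above the log2 line. The lowest shares among transcripts with a symbol well above background on the 0.5M and M arrays were those of Cyp2c7 (16.5%) and Ceacam4 (21.3%), and the highest was that of Cyp1a1. Shares lower still belonged to transcripts without a symbol, also well above background on those arrays. A transcript that rose at M (1.00) and stood at 0.08 at 0.5M reached 8.38%, with a departure of -0.41 ± 0.16. Another, which fell at M (-0.45), reached 11.8%.

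**Figure D2:**
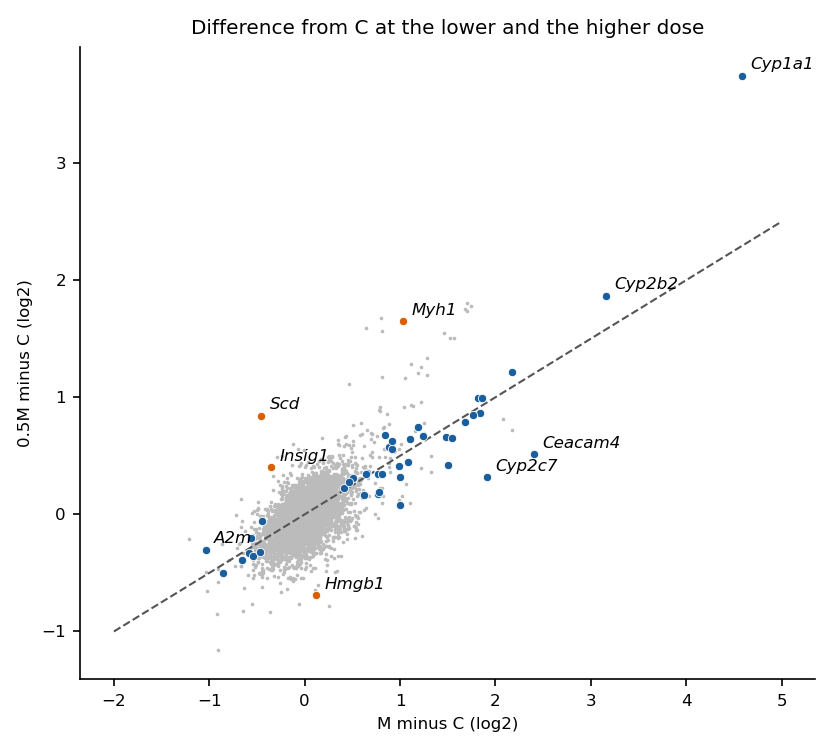
Difference from C at the lower dose (vertical axis, log2) against that at the higher dose (horizontal axis, log2) for the 13146 transcripts in grey. Both axes share the C arrays. Blue points are the 42 transcripts called between M and C, orange points are 4 other named genes and the dashed line is 50% of the M difference. Cyp1a1 stands far above the line (3.74 against 4.58), and Ceacam4 and Cyp2c7 lie below it.

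Among the 29 pathway lists, cholesterol synthesis had the highest median departure, although none of its genes passed. Of 25 measured members, 24 lay above the line and 1 below it, with a median departure of 0.22 against -0.0035 over all transcripts, of which 48.5% lay above. The list was 0.18 above C at the lower dose and -0.10 at the higher dose, by medians. In all, 23 of 25 were above C at the lower dose, 4 of 25 at the higher dose, and 24 of 25 were higher at 0.5M than at M. At an unadjusted p under 0.05 there were 5 of 25 above the line (20.0%), against 2.05% of all transcripts, and 0 at the adjusted threshold. The list was chosen with earlier results of these data known, so its counts are a description.

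Array by array the cholesterol genes were less uniform than these counts. The list median relative to C was -0.04, 0.26, 0.25 and -0.44 in the C arrays. It was 0.03, 0.38, 0.24 and 0.15 at the lower dose, and -0.02, -0.10, -0.10 and -0.15 at the higher dose. All 4 arrays of the lower dose lay above all 4 of the higher dose, but only 1 lay above all C arrays, and the C arrays spanned a wider range than either dose. The median departure of the list was 0.12 within slide 1, with 21 of 25 above the line, and 0.38 within slide 2, with 25 of 25. Leaving out 1 array at a time gave 0.16 to 0.29, with 22 to 25 members above the line.

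Insig1, the sterol-responsive retention protein, had the largest departure of the list at 0.58 ± 0.19 (limma, adjusted p = 0.900). Its levels were 0.61, -0.20, 0.63 and 0.58 in the 0.5M arrays and -0.64, 0.21, -0.15 and -0.84 in the M arrays, so that 3 of 4 arrays of the lower dose lay above all M arrays. Msmo1 had 0.46, 0.69, 0.58 and 0.89 in the 0.5M arrays and 0.34, 0.36, 0.09 and -0.08 in the M arrays, without overlap. Its C arrays, from -0.49 to 0.63, reached into the range of the lower dose, and the departure was 0.57 ± 0.19 (adjusted p = 0.900). The promoters of both were printed above, with 1 CCAAT box in Insig1 and 3 in Msmo1. Hmgcs1, named after its value was seen, had a departure of 0.46, with 2 CCAAT boxes in its promoter.

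Fatty acid synthesis genes lay above the line less evenly. Of 18 measured members 13 lay above the line and 0 passed, with a median of 0.18, which was 0.22 within slide 1 and 0.08 within slide 2. Fasn, fatty acid synthase, had levels of 0.18, 0.96, 0.17 and 0.63 in the 0.5M arrays and -0.41, -0.03, -0.47 and -0.26 in the M arrays. The doses did not overlap, but the C arrays ran from -0.51 to 0.33, and the departure was 0.63 ± 0.17 (limma, adjusted p = 0.900). Scd, the desaturase that makes monounsaturated fatty acids, had the largest departure of both lipid lists at 1.07 ± 0.39 (adjusted p = 0.900). Its 0.5M arrays stood at 0.19, 2.04, 0.39 and 0.75, its M arrays between -0.61 and -0.35, and its C arrays between -0.92 and 1.41. Without 0.5M replicate 2, its highest array, the departure of Scd was 0.63, and the list median was 0.08 in place of 0.18.

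Genes of fatty acid oxidation tended to lie on the other side. Of 31 measured members 23 lay below the line, 8 above and 0 passed, with a median of -0.08 against 51.5% of all transcripts below the line. Leaving out 1 array at a time gave medians of -0.11 to -0.07, with 6 to 13 members above the line. The list median per array overlapped between groups. It ran from -0.08 to 0.04 in C, from -0.14 to -0.06 at the lower dose and from -0.20 to 0.08 at the higher dose. Cpt1a, which admits fatty acids into mitochondria, had 0.5M arrays at -0.80, -0.53, -0.38 and -0.93 and M arrays at 0.28, -0.53, -0.08 and -0.68, which overlap. The departure of Cpt1a was -0.53 ± 0.18 (limma, adjusted p = 0.900). Hadha, of the trifunctional protein, had -0.37 ± 0.14, but its second probe gave 0.07.

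**Figure D3:**
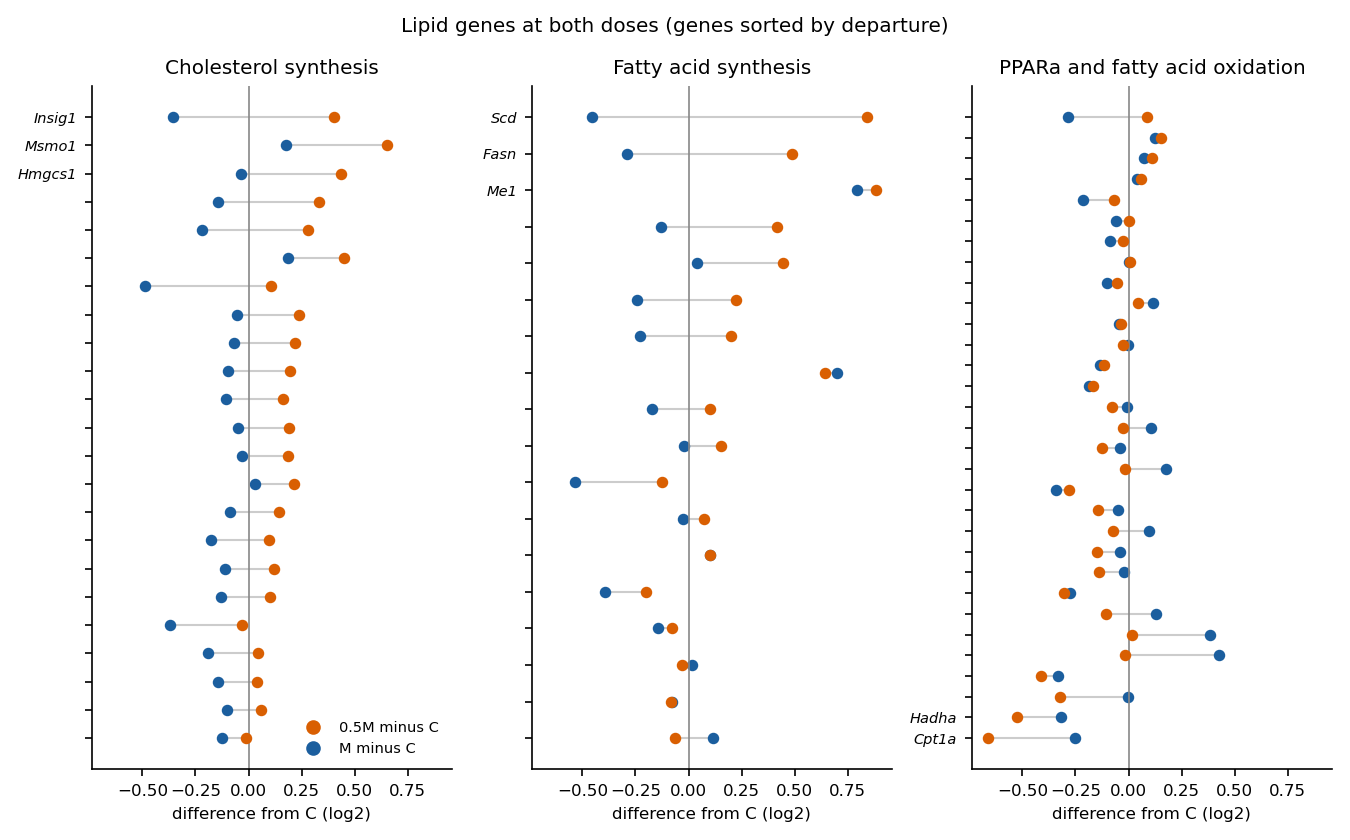
Differences from C on the log2 scale (horizontal axes) at the lower dose (orange) and at the higher dose (blue) for measured genes of 3 lists, sorted by departure, with the genes discussed in the text labelled and 2 cholesterol synthesis genes not drawn. The orange point lies to the right of the blue point for all 23 cholesterol synthesis genes drawn, for 13 of 18 in fatty acid synthesis and for 13 of 31 in fatty acid oxidation. Both differences share the C arrays.

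Further lists had medians within 0.15 of the line, none of their members passed, and their medians moved with single arrays. The median was -0.10 for acute phase genes (17 of 24 below), -0.10 for coagulation and complement (19 of 29 below), -0.12 for apolipoproteins (15 of 21 below) and -0.15 for male-biased liver genes (11 of 12 below). Leaving out 1 array gave -0.17 (without 0.5M replicate 3) to -0.03 (without 0.5M replicate 1) for the acute phase, and -0.15 (without 0.5M replicate 3) to -0.01 (without 0.5M replicate 2) for coagulation and complement. It gave -0.18 (without 0.5M replicate 3) to -0.06 (without 0.5M replicate 4) for apolipoproteins, and -0.21 (without 0.5M replicate 3) to -0.02 (without M replicate 1) for male-biased genes. With median centring the acute phase and coagulation medians turned to 0.02 and 0.01. Within these lists the smallest unadjusted p-values were those of Il1rn, an antagonist of interleukin-1 (-0.54 ± 0.17), C1r, a complement protease (-0.36 ± 0.15), and Apoc2, the activator of lipoprotein lipase (-0.21 ± 0.10). Unfolded protein response genes had a median of 0.04 (15 of 23 above), which turned to -0.02 without the 5 arrays with transcripts of other tissues. Its members included Pdia6 at 0.33 ± 0.10, Creld2 at 0.29 ± 0.11 and, the other way, the chaperone Calr at -0.46 ± 0.22, named after its value was seen. Mt2A, a metallothionein, had a departure of -0.67 ± 0.30, and its M arrays ran from -0.31 to 0.97.

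Of the Kupffer cell and macrophage markers, 14 of 17 lay below the line with a median of -0.14, and 0 passed. That median was -0.21 without 0.5M replicate 2 and -0.09 without 0.5M replicate 4, and -0.04 within slide 1. The median of that list ranged from -0.19 to 0.15 over the C arrays, from -0.26 to 0.07 at the lower dose and from -0.03 to 0.17 at the higher dose. Clec4f, a Kupffer cell lectin, had a departure of -0.34 ± 0.11, with 0.5M arrays at -0.21, -0.16, -0.28 and -0.54. Genes listed as bile duct markers, Krt7 and Krt8 among them, lay above the line for 7 of 7, with a median of 0.12. Of the Kupffer list 13 of 17, and of the bile duct list 2 of 7, were well above background on all 16 arrays. The part of these cells in the results on other lists was not tested.

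**Figure D4:**
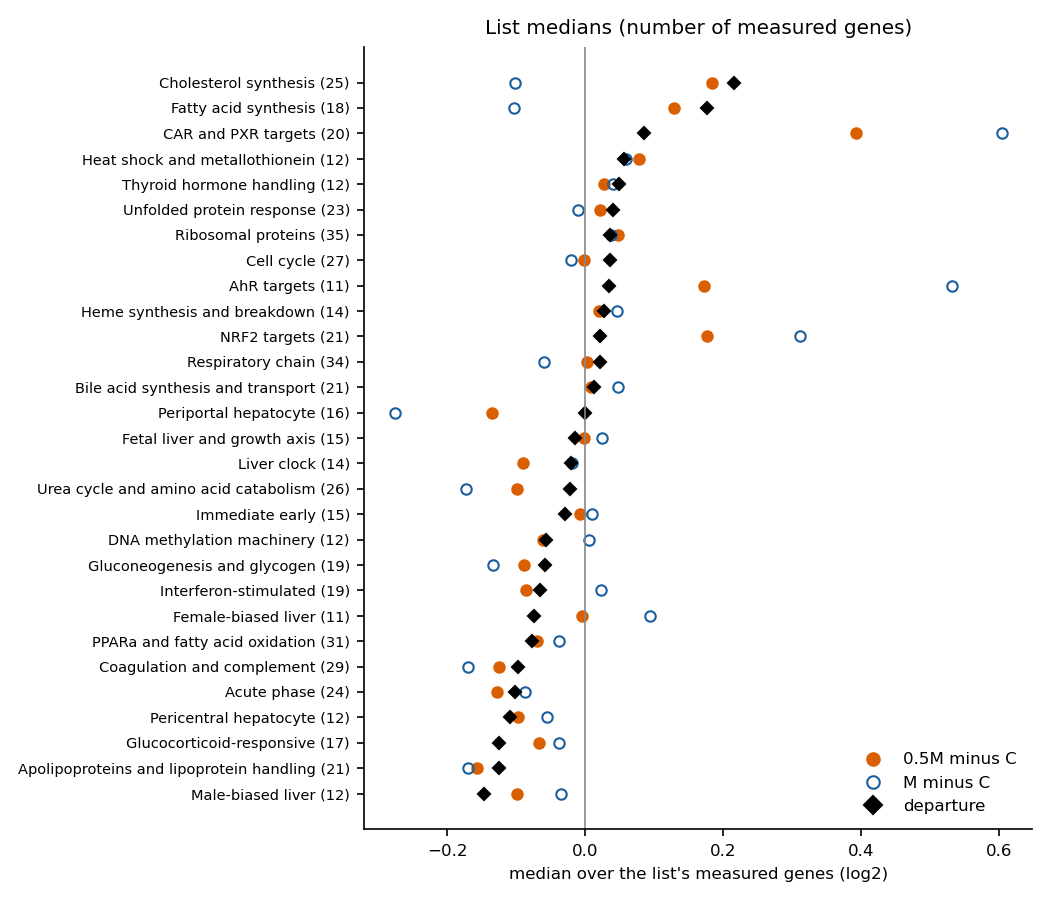
Medians over the measured genes of 29 pathway lists (log2, number of genes in brackets) of the difference from C at the lower dose (filled orange), at the higher dose (open blue) and of the departure (black diamonds). Cholesterol synthesis (0.22) and fatty acid synthesis (0.18) have the highest median departures, and male-biased liver genes have -0.15, which was -0.02 without M replicate 1.

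Transcripts whose arrays set the lower dose apart from both other groups were sought by a rule: all 4 arrays of the lower dose had to lie above, or all below, the other 8 arrays. This held for 17 transcripts above (0.129%) and 40 below (0.304%), in all 57 or 0.434%. None of them passed the test of the departure, so none is shown to have moved, and the values below describe transcripts picked by the rule. The count depends on which arrays are in: without the 2 arrays with muscle transcripts it was 97 above and 156 below, where fewer arrays have to be cleared.

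Among those below, Usp42, a deubiquitinating enzyme, had the smallest unadjusted p of transcripts with a symbol. Its 0.5M arrays were tight, at -0.51, -0.42, -0.46 and -0.46, and its M arrays lay between -0.29 and 0.01. The departure of Usp42 was -0.37 ± 0.07 (limma, adjusted p = 0.541), with -0.38 within slide 1 and -0.36 within slide 2. Hmgb1, a chromatin protein and danger signal, had the largest of these named departures at -0.75 ± 0.16 (adjusted p = 0.541), with 0.5M arrays at -0.81, -0.77, -0.32 and -0.85 and the C and M arrays between -0.27 and 0.25. The other 2 probes of Hmgb1 gave -0.02 and -0.21.

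Probes of other transcripts in this class also disagreed. Vegfa, the endothelial growth factor, had 0.5M arrays at -0.53, -0.43, -0.33 and -0.66 by its brightest probe and a departure of -0.52 ± 0.11 (limma, adjusted p = 0.541). A second probe to the same RefSeq transcript gave -0.44, whereas both probes to another Vegfa transcript gave 0.03. Thrap3, an RNA processing factor, had -0.35 by one probe and 0.03 by the other. Rspo3, an enhancer of Wnt signalling made near the central vein, had -0.43 ± 0.12, and 0.5M replicate 4 at -0.72 stood apart from the other three at -0.30, -0.31 and -0.33. Without that array the departure of Rspo3 was -0.32. Nifk, Hdac11, a histone deacetylase, and Vamp7, a vesicle fusion protein, had -0.38, -0.28 and -0.36 with 1 measured probe each.

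Among those above, the 6 with a symbol that lay farthest from both other means are named here. Pdia6, a disulfide isomerase of the endoplasmic reticulum, had 0.5M arrays at 0.43, 0.18, 0.47 and 0.19, the C and M arrays between -0.19 and 0.15, and a departure of 0.33 ± 0.10 (limma, adjusted p = 0.900). Serp1, which guards nascent membrane proteins, had 0.45, 0.35, 0.39 and 0.42, close above 0.30 and 0.31, the highest C and M arrays. The departure of Serp1 was 0.32 ± 0.14, and 0.23 without C replicate 1, its lowest array at -0.53. Tmx4, a membrane thioredoxin, Mars1, the methionyl tRNA synthetase, Smndc1, a splicing factor, and Rpp25, of ribonuclease P, had 0.20, 0.22, 0.17 and 0.18.

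**Figure D5:**
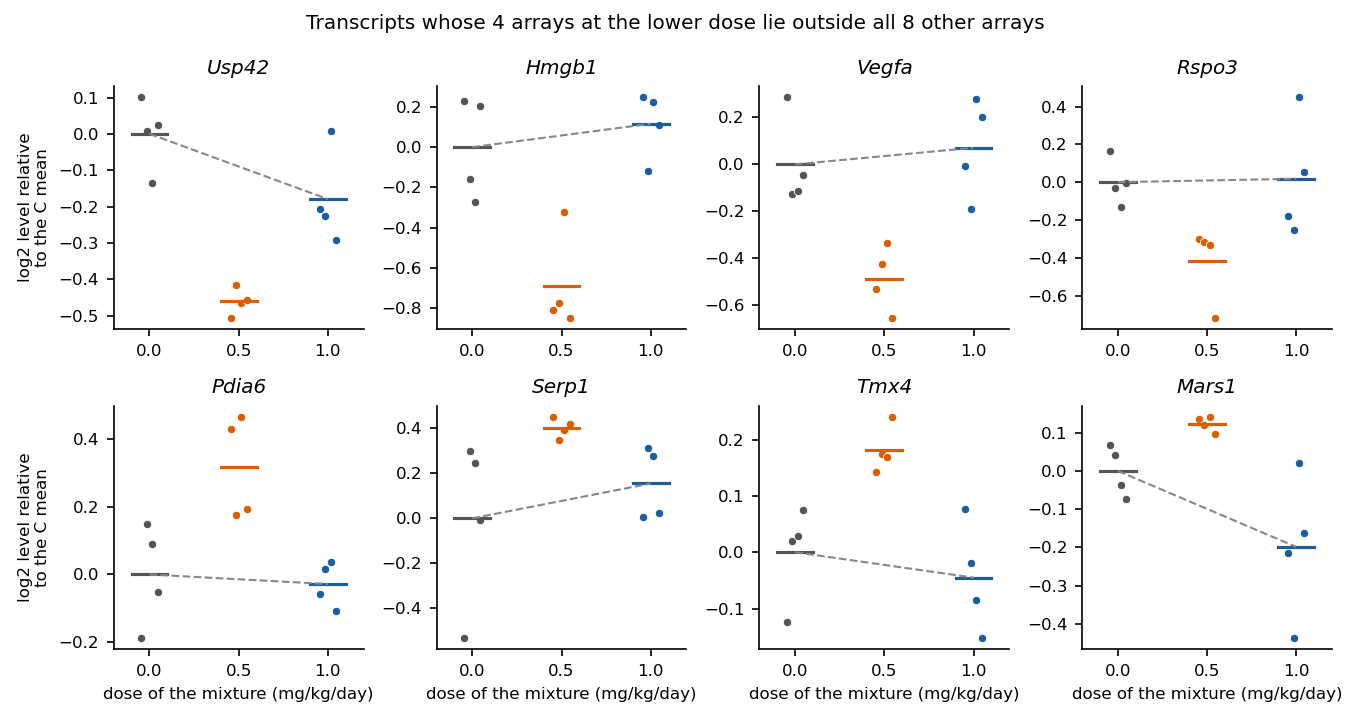
Log2 levels relative to the C mean (vertical axes) against dose in mg/kg/day for 8 transcripts whose 4 arrays at 0.5 mg/kg/day lie outside the 8 other arrays. Points are arrays, bars are group means and the dashed line joins C and M. Mars1 (departure 0.22) shows the narrowest set of arrays at the lower dose, and Rspo3 (-0.43) has 1 array apart from the others.

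Of the 20 transcripts with a symbol and the smallest unadjusted p-values, 10 in each direction, the remaining ones are given by their departures alone. Above the line these were Morf4l2 (0.35), Aph1a, a subunit of gamma-secretase (0.34), Sgk1, a kinase induced by glucocorticoids (0.36), Mfsd4b2 (0.29), Acot7 (0.28), Acbd4 (0.26) and Slc12a7, a potassium chloride carrier (0.25). Below the line they were Fam133b (-0.33), Slc38a7, an amino acid carrier (-0.47), and Abcc9, a subunit of potassium channels (-0.36). None passed the adjusted threshold. For Morf4l2 the 0.5M arrays, from 0.15 to 0.51, overlapped the C arrays, which reached 0.29, and lay above all M arrays, the highest at -0.03.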

How the data were processed

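Scanner intensities were deposited by the authors as median Cy5 and Cy3 signals and local backgrounds from Agilent Feature Extraction 10.7.3.1, per the file headers, beside log10 ratios normalized by that software. The authors also deposited a table of log2 values, whose columns correlated with their own arrays at 0.977 to 0.998 and with any other array at up to 0.878. Its medians of -0.0093 to 0.0125 lie near 0, and whether it was centred is not stated in the sources used here.

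Signals were background-corrected (normexp, offset 50) and loess-normalized in limma 3.58.1 under R 4.3.3. A probe was kept where 4 or more of the 16 arrays marked its Cy5 signal as well above background, which held for 14524 of 30367, less 12 with missing values. The brightest probe stood for each gene, which left 13146 transcripts, 8562 with a symbol. RefSeq supplied names only, apart from the promoters. Group means and slide were fitted to all 16 arrays (lmFit, eBayes, two-sided) and p-values were adjusted over all transcripts by Benjamini-Hochberg at 0.05. The linear departure took its error from the delta method. Array values are shown with the slide term removed. Members, lists and tests were chosen with earlier results of these data known. Named genes were the 10 smallest p-values and 6 lower-dose-only transcripts in each direction, 2 per list, and a set known from those results. Code was tested on simulated data. Values of some single genes are not reported here.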

Additional observations from a re-analysis of the deposited data

Results flagged for a closer look

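Single arrays that stood apart from the other 3 of their group, by Dixon's criterion, were sought among the named genes. Of 330 groups of 4 arrays tested, 20 met it, where chance gives about 16.5, or 1 in 20. All values are log2 relative to the C mean.

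At the lower dose, replicate 2 stood at -0.20 for Insig1 (others 0.58 to 0.63) and at 0.47 for Pck2 (others 0.18 to 0.20). Replicate 4 stood at -0.72 for Rspo3, at -0.70 for F9, a clotting factor, at 5.71 for Myh1, a muscle myosin, and at 1.83 for Pygm, muscle phosphorylase. The other 3 arrays lay between -0.33 and -0.30 for Rspo3, between -0.39 and -0.34 for F9, between -0.06 and 0.57 for Myh1 and between -0.10 and 0.20 for Pygm. Replicate 3 stood nearer to C than the others for Hmgb1 (-0.32), C1r (-0.027) and Apoa1 (-0.037). Replicate 1 stood at -0.63 for Uqcrb (others -0.20 to -0.13), and a second probe of Uqcrb gave a departure of 0.02.

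At the higher dose, replicate 2 stood at 3.76 for Myh1 (others -0.17 to 0.45). Replicate 3 stood at -0.46 for Spink1, at 0.34 for Nifk and at 0.26 for Acot7. Replicate 4 stood at 0.30 for S100a9, at -0.032 for Acbd4 and at -0.61 for Cyp2e1. Replicate 1 stood at -0.20 for Klf1 and at 0.40 for Akr1d1. In the C group, replicate 2 stood at -0.18 for Nfil3 (others 0.04 to 0.07).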

How the results depend on the processing

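No called value changed direction under the alternatives. Among values of named genes under the alternatives, 3327 kept their direction and their side of the threshold, 44 that were never called changed sign, 3 became called and 5 lost their call. Of list medians, 1180 stayed within the spread between arrays and 18 moved beyond it. The 1 departure above the line became 0 within slide 1, with median centring, with quantile normalization, without the 5 arrays with transcripts of other tissues and on the linear scale. The 0 below the line became 1 without the 2 arrays with muscle transcripts and 1 without the 5. The 0 linear departures below the line became 1 with no slide term, within slide 2, with slide as a random block, with array weights, and without the 2 or the 5 arrays. For 0.5M against C the 2 calls became 1 within slide 1 and 0 with median centring. For M against C the 42 became 4 and 7 within slides 1 and 2, 1 with median centring, 20 with the scanner's log ratio and 66 with array weights. For 0.5M against M the 2 became 0 within slide 1 and with median centring, and 4 within slide 2, with the random block, with array weights and without the 5 arrays.

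The 17 lower-dose-only transcripts above became 596 and 767 within slides 1 and 2, 3 with median centring, 44 with no filter on dim probes, 97 without the 2 arrays and 457 without the 5. The 40 below became 26 with no slide term or the slide not taken out, 739 and 862 within slides, 8 with median centring, 76 with no filter, 19 with probes well above background on all 12 arrays, 156 without the 2 and 470 without the 5. Fewer arrays must be cleared within a slide or without arrays. The number of transcripts tested also differed: 26872 with no filter and 6488 with probes well above background on all 12 arrays, against 13146 in the main fit. Counts under those settings therefore cannot be set against 17 and 40 directly. Slide as a random block gave no such count, and Ceacam4 was not among the probes well above background on all 12 arrays.

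Leaving out 1 array gave 1 departure above, 0 to 1 below, 0 to 1 linear departures below, 20 to 103 lower-dose-only transcripts above and 44 to 137 below, 2 to 3 calls for 0.5M against C, 22 to 53 for M against C and 2 to 4 for 0.5M against M. Same-numbered arrays of different groups, which always share a slide, correlated at -0.41 to 0.19 (24 pairs, median 0.002) once slide was taken out. Differently numbered arrays of the same slide correlated at -0.46 to 0.38 (24 pairs, median -0.13). With slide kept the medians were 0.19 and 0.12. These ranges overlap and cannot tell whether the numbers pair the arrays, and the main model did not pair them. With the replicate block the departure gave 1 above and 0 below, the lower-dose-only counts were 33 and 69, and 0.5M against C, M against C and 0.5M against M gave 3, 41 and 7. Transcripts with an unadjusted p under 0.05 numbered 61 of 13146 with median centring and 1304 of 26872 with no filter, against 717 of 13146 in the main fit.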
